A study of Mus musculus with 10 samples.

Results

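The genes described here are 10 of the receptor and STAT3 pathway of leukaemia inhibitory factor (LIF). They are the cytokine gene Lif, the receptor chains Lifr and Il6st, and Osmr, which encodes a receptor chain for oncostatin M. The others are the kinases Jak1 and Jak2, the transcription factor Stat3, and the STAT3 target genes Socs3, Pim1 and Pim3. All 10 were found by gene symbol in the deposited transcript names, and make up 10 of 45706 genes and 51 of 109617 transcripts. RNA was measured by poly(A) RNA sequencing in mouse cells labelled as C57BL/6 x 129, in 5 groups of 2 libraries each. Embryonic fibroblasts (MEF) carried a doxycycline-inducible OKSM cassette (Oct4, Klf4, Sox2 and Myc) in the Col1a1 locus and the transactivator M2rtTA in Rosa26. The MEF group was kept in MEF medium without doxycycline and was not sorted. Day 3, day 6 and day 9 cells came from fibroblasts of that genotype, reprogrammed with doxycycline at 1 µg/ml and ascorbic acid at 50 µg/ml in embryonic stem cell (ESC) medium, which held serum and LIF at 1000 U/ml. Day 3 cells were unsorted, and day 6 and day 9 cells were sorted for the surface epitope SSEA1. The ESC group was the line V6.5, which carries no cassette in its label, unsorted and grown in ESC medium on irradiated feeder cells. LIF in the MEF medium is not given in the sources used here. In comparisons of reprogramming cells with MEF, induction, ascorbic acid and the change of medium, with its LIF, cannot be told apart. At day 6 and day 9, sorting adds to these. ESC and MEF differ in cell line, genotype, medium and feeder cells. ESC and day 9 cells differ in cell line, genotype, doxycycline, ascorbic acid and sorting, and feeder cells are named above for ESC only. Those differences cannot be told apart either. Between day 3 and day 6, time and sorting cannot be told apart. The submitters call the samples biological replicates, but the labels do not say whether 2 libraries of a group came from separate cultures, so the tests measure the spread between these samples.

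As background, LIF binds the chain encoded by Lifr, which pairs with gp130, the product of Il6st and the shared signalling chain of the interleukin-6 cytokine family. The paired receptor activates the JAK kinases bound to it, which phosphorylate STAT3, and STAT3 dimers then enter the nucleus and switch on target genes. One of those targets, Socs3, encodes an inhibitor that binds gp130 and the JAK kinases and closes a negative feedback loop. In mouse ESCs this pathway sustains self-renewal, which is why LIF is a standard part of their medium. RNA levels do not show receptor occupancy or STAT3 phosphorylation.

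Libraries held 29585876 to 38275024 estimated reads, and all 10 carried the same batch label. The 12 fibroblast markers summed to 34010 and 33751 CPM (counts scaled to library size) in MEF, to 3268 and 3257 at day 3, to 151.5 and 146.2 at day 6, to 62.8 and 68.2 at day 9, and to 2853 and 3026 in ESC. The 8 pluripotency markers summed to about 2 CPM in MEF (1.86 and 2.09), to 347.8 and 355.1 at day 9 and to 4021 and 4105 in ESC. The 8 markers of macrophages and blood summed to 89.8 and 93.0 CPM in ESC and to 4.73 to 31.0 in the other libraries. Most of the ESC sum was Lyz2 (50.1 CPM) and Cd68 (25.5 CPM). In ESC against MEF, 5 of these markers were called higher and 3, Ptprc among them, were not called. Markers of endothelium summed to 130.3 to 135.7 CPM at day 3 and day 6 and to 12.5 to 95.8 in the others. Most of that sum at day 3 and day 6 was Tek (121.0 and 108.6 CPM). The other 5 did not share 1 order. Cdh5 was also highest at day 3 and day 6 (7.54 and 9.39 CPM), Esam at day 9, Emcn in MEF, and Tie1 and Egfl7 in ESC.

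Most of the pathway was at its highest level in fibroblasts. Lif, Il6st, Osmr, Jak1, Jak2 and Stat3 were each highest in MEF, Socs3 was highest at day 3, and Lifr, Pim1 and Pim3 were highest in ESC. The highest group mean exceeded the lowest by between 2.33-fold (Lif, MEF over day 3) and 21.8-fold (Osmr, MEF over day 9). Of the 40 pairs of groups that are neighbours in a gene's order of levels, the libraries overlapped in 2, Stat3 at day 6 and day 3 and Socs3 at day 9 and in ESC. That count was not made over all tested genes, so it does not set these 10 apart. All levels below are CPM after TMM scaling unless stated. A gene was called where its adjusted p (edgeR's quasi-likelihood test across 20165 genes, Benjamini-Hochberg) was under 0.05 and its log2 fold change was at least 1 in size. All 10 genes passed the filter on low counts. These are bulk samples, in which fewer cells of a type and less RNA per cell cannot be told apart.

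**Figure D1:**
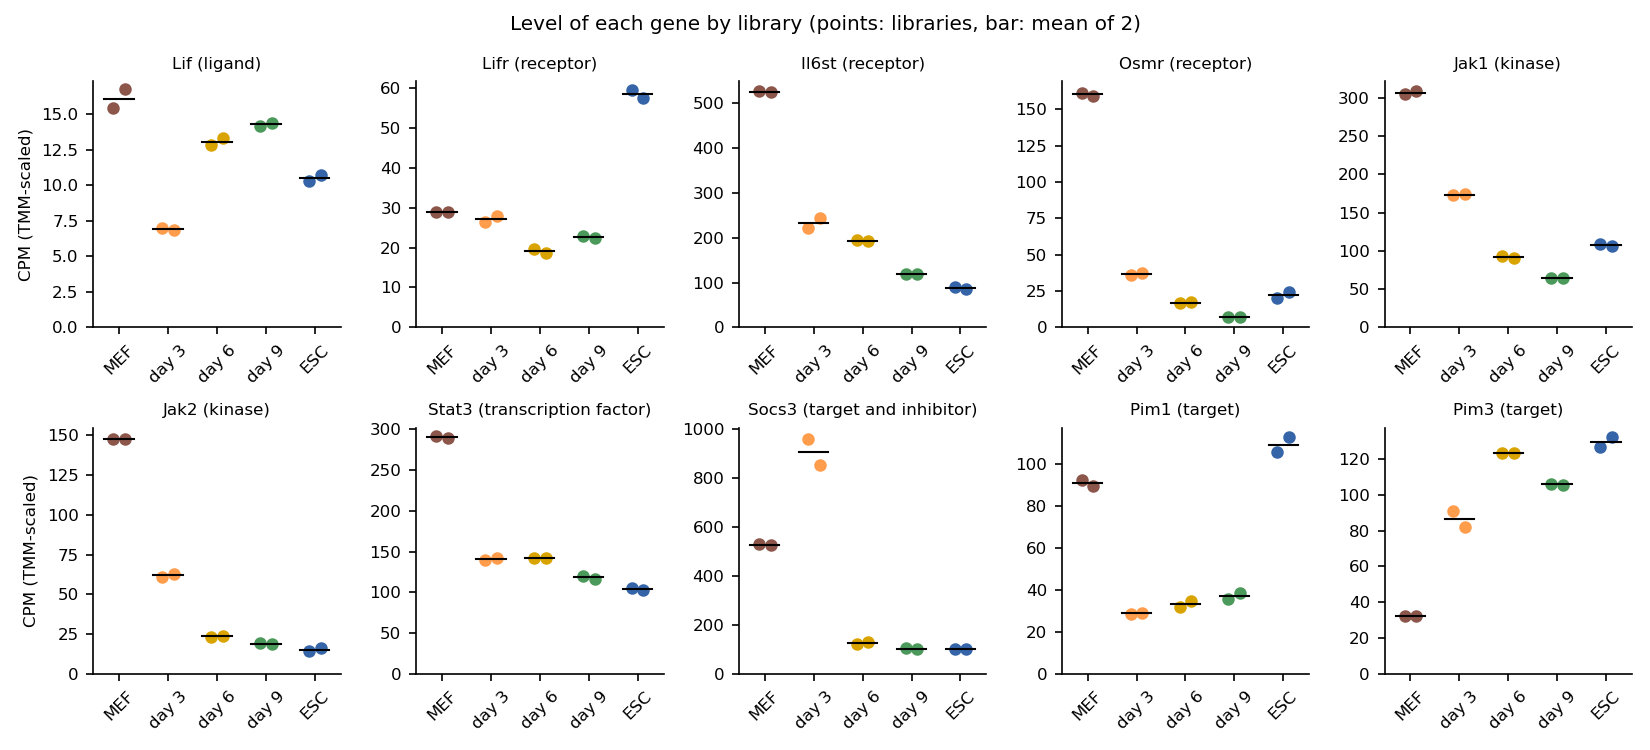
Level of each of the 10 genes in CPM (vertical axes start at 0, with a scale for each panel) in the 5 groups; points are the 2 libraries of a group and bars their mean. Il6st, Osmr, Jak1, Jak2 and Stat3 start at their highest level in MEF, Socs3 peaks at day 3 with 961.2 and 851.7 CPM, and Lifr, Pim1 and Pim3 end at their highest level in ESC.

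Lif (11:4257557-4272514, plus strand, GRCm38), the gene of the secreted cytokine itself, was a minor transcript in every group. It stood at 15.4 and 16.8 CPM in MEF, 6.98 and 6.86 at day 3, 12.8 and 13.3 at day 6, 14.2 and 14.4 at day 9, and 10.3 and 10.7 in ESC. Day 3 was the low point, and no day 3 library came near those of another group. Lif fell from MEF to day 3, at -1.22 on the log2 scale (SE 0.08, edgeR adjusted p = 6.7e-09). That call was lost with limma on log2(TPM + 1), at -0.8. The return at day 6, of 0.92 (SE 0.08, edgeR adjusted p = 2.7e-07), stayed under the fold change minimum. It passed with a gene length offset, at 1.33, and in limma on log2(TPM + 0.1), at 1.25. In limma on log2(TPM + 0.1) of transcripts of 1000 bases or more it did not pass, at 0.81. The LIF protein added with ESC medium is not part of these values.

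Lifr (15:7090614-7197489, plus strand), which encodes the ligand-binding chain, was the only one of the 3 receptor members that was highest in ESC. MEF held 28.8 and 28.9 CPM, day 3 held 26.5 and 27.9, day 6 held 19.7 and 18.6, day 9 held 22.8 and 22.3, and ESC held 59.5 and 57.3. Both ESC libraries lay above all 8 others. Lifr rose from day 9 to ESC by 2.58-fold (log2 fold change 1.37, SE 0.05, edgeR adjusted p = 1.1e-11). None of the 3 steps from MEF to day 9 was called, with log2 fold changes of -0.08, -0.51 and 0.24. ESC against MEF gave 1.02 (SE 0.05, edgeR adjusted p = 1.4e-10), just past the fold change minimum. It fell below that minimum without ESC replicate 1 (0.99), in DESeq2 (0.94), with a gene length offset (0.84) and in all 3 limma fits to TPM (0.66 to 0.89).

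Il6st (13:112464070-112510086, plus strand), the gene of gp130, was lowest in ESC, where Lifr was highest. It was measured at 526.9 and 526.0 CPM in MEF, 222.5 and 244.7 at day 3, 194.7 and 192.2 at day 6, 119.4 and 118.5 at day 9, and 90.8 and 86.5 in ESC. Its levels were lower at each later stage, with no overlap between neighbouring groups. Il6st fell from MEF to day 3 (log2 fold change -1.17, SE 0.04, edgeR adjusted p = 4.5e-12), a call that library-size scaling without TMM ended at -0.97. The 3 later steps were smaller and not called, at -0.27, -0.7 and -0.42. Over the whole course Il6st fell 5.94-fold from MEF to ESC (log2 fold change -2.57, SE 0.04, edgeR adjusted p = 1.4e-15). The part of feeder RNA in its ESC level was not tested. Il6st-001 held most of the gene's estimated reads from day 3 to day 9. The promoter of Il6st is shown because it ends where that transcript starts, and holds letters of a KLF4-type site. It is the window of 250 bases before the RefSeq start (RefSeq, GRCm38.p6, chr13:112463820-112464069, plus strand), with CCACCC in capitals, which occurs in a pair of overlapping copies that begin 212 and 208 bases upstream:
Il6st: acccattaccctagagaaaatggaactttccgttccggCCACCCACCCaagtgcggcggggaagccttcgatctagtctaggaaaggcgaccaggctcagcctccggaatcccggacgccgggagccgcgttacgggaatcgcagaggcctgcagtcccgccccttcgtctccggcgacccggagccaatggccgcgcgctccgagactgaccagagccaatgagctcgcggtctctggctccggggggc

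Osmr (15:6813577-6874969, minus strand), which encodes the chain that pairs with gp130 to receive oncostatin M, had the widest range of the 10 genes. Its levels were 161.5 and 159.1 CPM in MEF, 36.3 and 37.2 at day 3, 16.5 and 17.6 at day 6, 7.3 and 7.4 at day 9, and 20.4 and 24.2 in ESC. It was lower at every reprogramming stage than at the one before, and ESC lay between day 3 and day 6. Osmr fell at each of the 3 steps to day 9, with log2 fold changes of -2.13 (SE 0.06, edgeR adjusted p = 3.1e-13), -1.11 (SE 0.07, edgeR adjusted p = 5.9e-09) and -1.21 (SE 0.09, edgeR adjusted p = 1e-07). It was the one member called at all 4 steps, since it rose from day 9 to ESC by 1.6 (SE 0.08, edgeR adjusted p = 5.1e-10). The day 6 call was lost with a gene length offset (-0.99) and in limma on log2(TPM + 1) and log2(TPM + 0.1) (-0.72 and -0.95), and the day 9 call in limma on log2(TPM + 1) (-0.82). Osmr in ESC was 13.9% of its MEF level, where the 12 fibroblast markers were at 1.11% to 14.0% of theirs, with a median of 8.18%. At day 9, Osmr was at 4.58% and the markers at 0 to 2.87%, median 0.215%, with Lum at 0 in the mean of the libraries. The part of feeder or fibroblast RNA in these Osmr values was not tested.

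**Figure D2:**
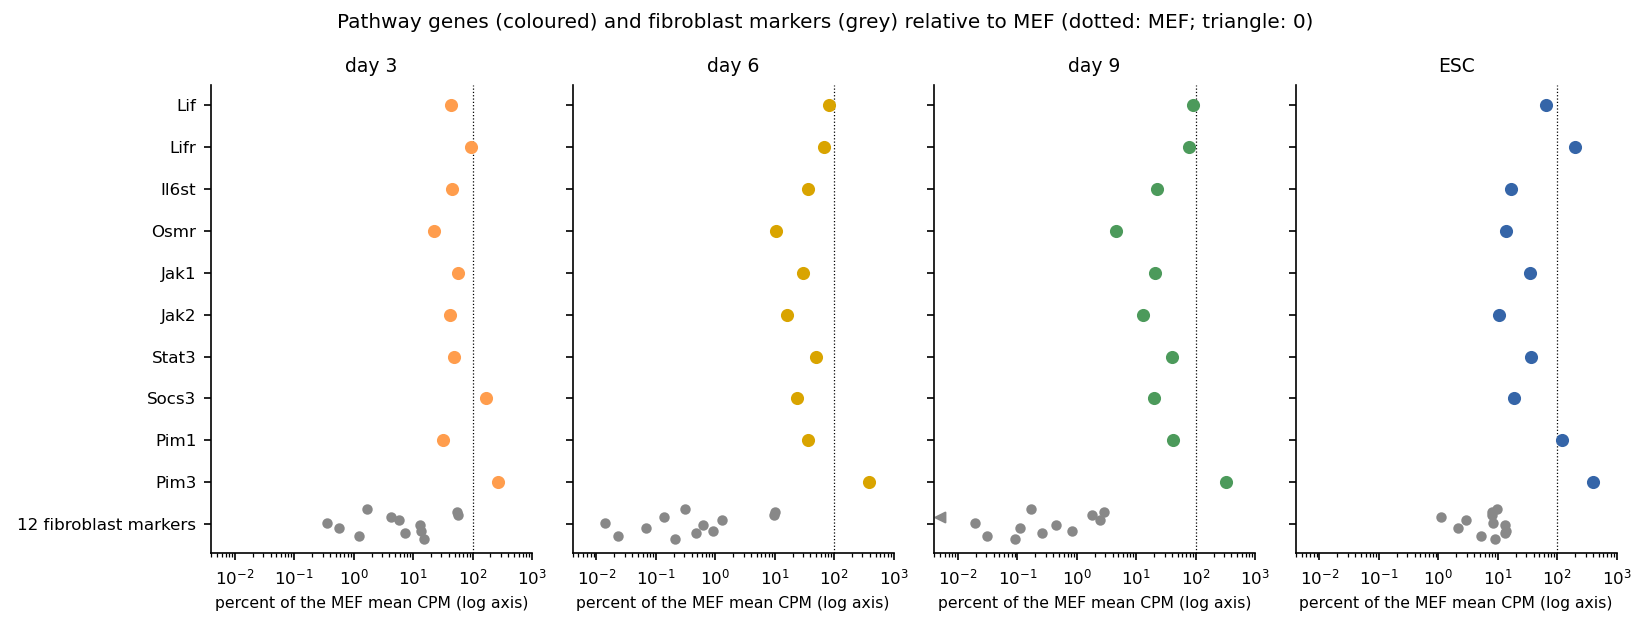
Mean CPM as a percentage of the MEF mean (horizontal log axis; dotted line, 100%) at day 3, day 6, day 9 and in ESC, with 1 coloured point for each pathway gene and grey points for the 12 fibroblast markers; the triangle stands for a marker at 0. Every pathway gene lay above the highest fibroblast marker at day 6 and day 9 (Osmr at 10.6% and 4.58%, markers up to 10.2% and 2.87%), while in ESC Osmr at 13.9% and Jak2 at 10.4% lay inside the range of the markers.

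Jak1 (4:101152367-101265282, minus strand) and Jak2 (19:29251828-29313080, plus strand) encode the tyrosine kinases attached to the receptor chains, and both were lower at each later reprogramming stage. Jak1 was measured at 304.5 and 309.2 CPM in MEF, 172.6 and 174.7 at day 3, 93.0 and 90.3 at day 6, 64.6 and 64.0 at day 9, and 109.2 and 106.2 in ESC. Jak2 was measured at 147.9 and 147.4 CPM in MEF, 61.2 and 62.9 at day 3, 23.5 and 23.9 at day 6, 19.4 and 18.8 at day 9, and 14.4 and 16.2 in ESC. The kinases parted in the last comparison, where both ESC libraries lay above day 9 for Jak1 and below it for Jak2. No single step of Jak1 was called (-0.82, -0.92, -0.51 and 0.74, edgeR adjusted p of 5.7e-08 or smaller in each). Across the 3 steps together, Jak1 fell 4.77-fold from MEF to day 9 (log2 fold change -2.25, SE 0.03, edgeR adjusted p = 2.5e-16). Jak2 fell at the first step (-1.25, SE 0.04, edgeR adjusted p = 5.9e-12) and again at the second (-1.39, SE 0.05, edgeR adjusted p = 1.8e-11), and then gave -0.31 and -0.32, not called. From MEF to ESC it fell 9.63-fold (log2 fold change -3.27, SE 0.05, edgeR adjusted p = 8.1e-16). The part of feeder RNA in the ESC levels of Jak1 and Jak2 was not tested.

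Stat3 (11:100885098-100939540, minus strand), the transcription factor at the end of the signal, had its largest difference between MEF and day 3 and smaller ones after. It stood at 291.9 and 288.7 CPM in MEF, 139.5 and 142.4 at day 3, 142.2 and 141.6 at day 6, 120.6 and 116.4 at day 9, and 105.9 and 103.0 in ESC. The day 3 and day 6 libraries overlapped, and all other groups were separate. Stat3 fell at the first step (log2 fold change -1.04, SE 0.03, edgeR adjusted p = 1.2e-12), near the fold change minimum. The call was lost with library-size scaling without TMM (-0.84) and in limma on log2(TPM + 0.1) of transcripts of 1000 bases or more (-0.94). The later steps gave 0.01 (edgeR adjusted p = 0.83), -0.26 and -0.18. ESC were 2.78-fold below MEF (log2 fold change -1.48, SE 0.03, edgeR adjusted p = 2e-14). The Stat3 promoter is shown as the gene of the factor itself. This RefSeq window (GRCm38.p6, chr11:100939541-100939790, minus strand) ends at the start of Stat3-001, the transcript with 82.79% to 88.79% of the gene's reads, and holds GGGTGG once, in capitals, beginning 28 bases upstream:
Stat3: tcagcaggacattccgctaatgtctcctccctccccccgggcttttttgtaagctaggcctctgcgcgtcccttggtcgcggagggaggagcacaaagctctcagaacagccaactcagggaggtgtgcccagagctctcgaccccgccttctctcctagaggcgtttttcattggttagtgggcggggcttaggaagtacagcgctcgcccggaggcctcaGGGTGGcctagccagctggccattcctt

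Socs3 (11:117966079-117970047, minus strand), the feedback inhibitor, was the member with a peak at day 3. It was measured at 528.8 and 526.2 CPM in MEF, 961.2 and 851.7 at day 3, 122.6 and 128.9 at day 6, 105.2 and 101.4 at day 9, and 100.7 and 101.4 in ESC. Both day 3 libraries stood above every other library, and the day 9 and ESC libraries overlapped. Day 3 was 1.72 times MEF (log2 fold change 0.78, SE 0.05, edgeR adjusted p = 2e-09), under the fold change minimum. Socs3 then fell 7.21-fold to day 6 (log2 fold change -2.85, SE 0.05, edgeR adjusted p = 1.1e-14), the largest step of any of the 10 genes. The following steps gave -0.28 and -0.03, the second with an edgeR adjusted p of 0.62. The Socs3 promoter is shown because it is the one member window with the STAT motif TTCNNNGAA. The window (RefSeq, GRCm38.p6, chr11:117969367-117969616, minus strand) has TTCTTAGAA in capitals, beginning 154 bases upstream of the RefSeq start, which itself lies 180 bases upstream of the start of the coding transcript Socs3-001:
Socs3: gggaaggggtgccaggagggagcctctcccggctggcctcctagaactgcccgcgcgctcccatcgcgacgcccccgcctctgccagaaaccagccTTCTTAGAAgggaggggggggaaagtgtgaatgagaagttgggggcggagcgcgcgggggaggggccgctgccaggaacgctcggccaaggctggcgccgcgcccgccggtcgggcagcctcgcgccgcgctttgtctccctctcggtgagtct

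Pim1 (17:29490753-29496112, plus strand) and Pim3 (15:88862186-88865726, plus strand) encode related serine/threonine kinases that favour cell survival and are induced by STAT3 in mouse ESCs, and they took different courses. Pim1 stood at 92.3 and 89.3 CPM in MEF, 28.7 and 28.8 at day 3, 31.7 and 34.5 at day 6, 35.6 and 38.6 at day 9, and 105.4 and 112.7 in ESC. Pim3 stood at 32.4 and 32.1 CPM in MEF, 91.0 and 81.9 at day 3, 123.0 and 123.4 at day 6, 105.8 and 105.6 at day 9, and 126.5 and 132.2 in ESC. Pim1 was low in all 6 reprogramming libraries and high at both ends, whereas Pim3 was low in MEF alone. Pim1 fell from MEF to day 3 (log2 fold change -1.66, SE 0.06, edgeR adjusted p = 3.1e-12) and rose from day 9 to ESC (1.55, SE 0.05, edgeR adjusted p = 4e-12). ESC against MEF gave 0.27 for Pim1, not called. Pim3 rose from MEF to day 3 (1.42, SE 0.05, edgeR adjusted p = 7.7e-12) and gave 0.51, -0.22 and 0.29 at the later steps, none of them called.

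Day 3 against MEF asked what had changed early in reprogramming. Of the 10 members, 1 rose (Pim3) and 6 fell (Lif, Il6st, Osmr, Jak2, Stat3 and Pim1), where 29.1% of all tested genes were called, 14.6% higher and 14.5% lower. By adjusted p alone, with no fold change minimum, 9 members and 64.9% of all genes passed, and Lifr (edgeR adjusted p = 0.2) did not. The median log2 fold change of the members was -1.11, and that of all tested genes 0.08. In the rest of the pathway, 69 of 70 listed genes were tested, of which 9 rose and 16 fell, with a median of -0.2.

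The falls at day 3 reached the ligands and receptors of neighbouring cytokines. Of 7 tested ligand genes of the interleukin-6 family, 4 fell and none rose. The 4 were low already in MEF, with Osm at 0.132 CPM, Il11 at 1.56, Ctf1 at 4.56 and Il6 at 8.34. Among 5 receptor chain genes, 3 fell and 1 rose. Cntfr, the receptor chain for ciliary neurotrophic factor, fell from 6.67 to 0.37 CPM, and Il6, the cytokine interleukin-6, from 8.34 to 0.522 CPM. Il6ra, the ligand-binding chain for interleukin-6, rose from 6.31 to 54.2 CPM (log2 fold change 3.11, SE 0.08, edgeR adjusted p = 1.2e-13). At day 3 the receptor RNA of the family thus held less Osmr, Cntfr and Il6st and more Il6ra than in MEF, with fibroblast markers at a median of 6.53% of their MEF level; their part in these falls was not tested.

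The listed STAT3-responsive genes were split at day 3, with 5 of 20 higher and 6 lower. Those that rose included Myc, and reads of the induced cassette and of its endogenous genes, Myc and Klf4 among those listed, cannot be told apart in the summed counts. Nfil3, a transcriptional repressor, fell from 101.2 to 9.7 CPM, Ier3, an immediate-early gene, from 174.6 to 36.6, and Bcl3, a nuclear cofactor of NF-kappaB, from 14.7 to 3.27. Of the 14 adaptor, ERK and PI3K genes, 1 rose and 1 fell, the latter Map2k1, the kinase MEK1, from 180.7 to 54.4 CPM. Of the other STAT genes, 1 rose and 1 fell of 6. Of 15 inhibitors besides Socs3, 1 rose and none fell.

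**Figure D3:**
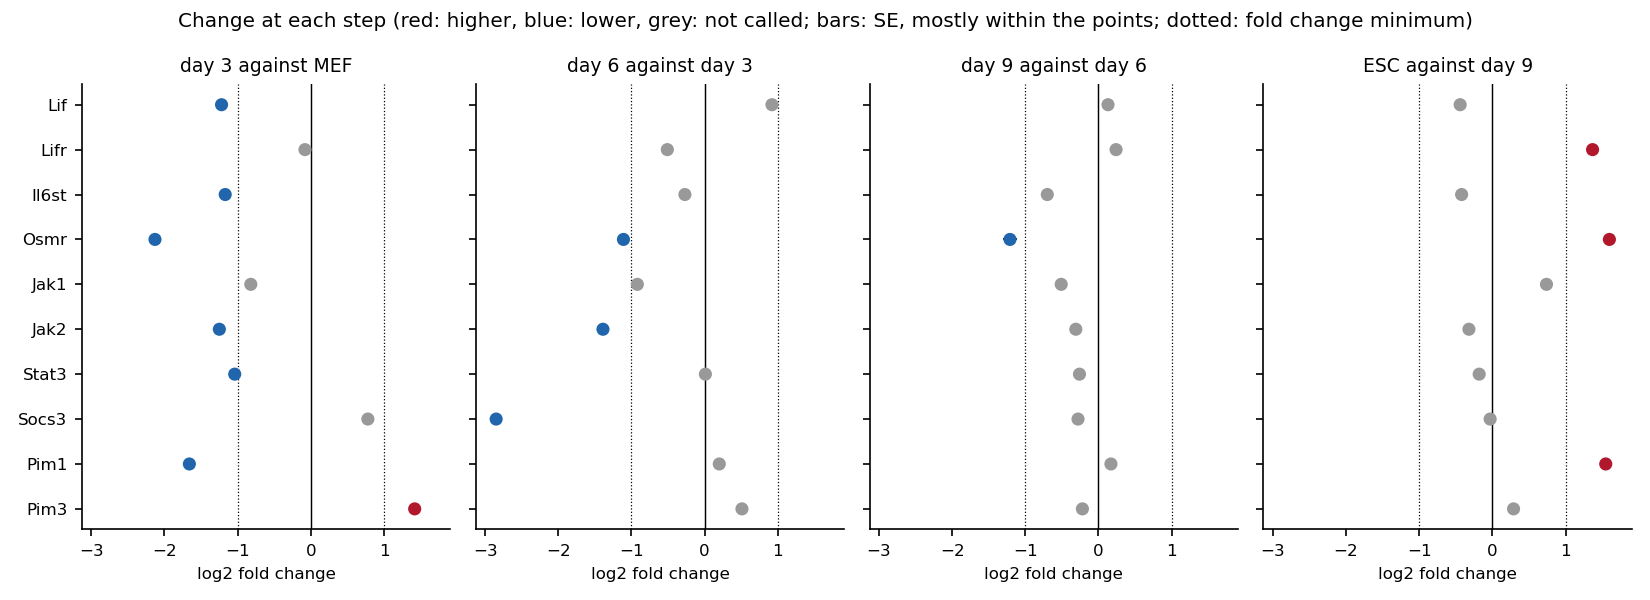
Log2 fold change of each of the 10 genes (horizontal axis) at the 4 consecutive steps, with error bars of 1 SE that mostly lie within the points, and dotted lines at the fold change minimum; red points were called higher, blue lower and grey not called. At day 3, 6 genes are blue, Socs3 stands farthest left at day 6 with -2.85, Osmr alone is coloured at day 9, and Lifr, Osmr and Pim1 are red in ESC.

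Day 6 against day 3 compared sorted with unsorted cells as well as later with earlier ones. There were 3 members that fell, Osmr, Jak2 and Socs3, and none rose, where 19.5% of all tested genes were called, 9.26% higher and 10.2% lower. By adjusted p alone 9 members passed, against 56.5% of all genes, and Stat3 did not. The members' median log2 fold change was -0.39, of 0.03 over all genes. Among the 69 other pathway genes, 10 rose and 15 fell, with a median of -0.31.

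Of the 20 STAT3-responsive genes, 4 rose and 6 fell at this step. The largest of the 4 rises were in Gbx2 and Tfcp2l1, and 6 of the 8 listed pluripotent cell markers rose at this step. Tfcp2l1, a transcription factor through which LIF and STAT3 act in mouse ESCs, rose from 1.18 to 37.0 CPM (log2 fold change 4.96, SE 0.09, edgeR adjusted p = 1.7e-14). Tfcp2l1 had already risen at day 3, from 0.303 CPM in MEF (1.96, SE 0.28, edgeR adjusted p = 2.3e-05). Gbx2, a homeobox gene with a like role, rose from 0.233 to 11.6 CPM (5.66, SE 0.18, edgeR adjusted p = 3.9e-12). Klf4 and Klf5, of the same list, gave 0.02 and -0.53, not called. Among the 6 that fell were the immediate-early transcription factor genes Fos, Junb and Egr1, which fell from 1429 to 315.5, from 397.2 to 88.9 and from 718.8 to 181.3 CPM.

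The inhibitors moved in both directions at day 6. While Socs3 fell, its relative Socs2 rose from 14.4 to 100.6 CPM (log2 fold change 2.8, SE 0.07, edgeR adjusted p = 3.4e-13). Ptpn6, which encodes the phosphatase SHP-1, rose from 2.71 to 13.1 CPM (2.27, SE 0.1, edgeR adjusted p = 2e-10). In the whole list of 15 inhibitors, 2 rose and 2 fell, and the latter included Ptprc, which is also on the list of blood cell markers. At this step 7 of 8 blood markers fell, and so did all 12 fibroblast markers; their part in the falls described here was not tested. Clcf1, a ligand of the interleukin-6 family, fell from 14.3 to 3.25 CPM.

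Day 9 against day 6 was the quietest step. Osmr was the 1 member called, lower, where 7.87% of all tested genes were called, 5.18% higher and 2.68% lower. By adjusted p alone 9 members passed, against 34.6% of all genes, and Lif did not (edgeR adjusted p = 0.22). Among the 9 members not called, Il6st had the largest value, -0.7, followed by Jak1 at -0.51. The members' median was -0.27, and that of all genes 0.0. Of the 69 other pathway genes, 2 rose and 1 fell. Tfcp2l1 rose further, from 37.0 to 75.6 CPM, Klf5, a Krüppel-like factor of ESCs, rose from 3.31 to 6.67, and Il6ra fell from 46.3 to 21.8.

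ESC against day 9 compared an established pluripotent line with sorted cells late in reprogramming. There were 3 members that rose, Lifr, Osmr and Pim1, and none fell, where 32.9% of all tested genes were called, 18.6% higher and 14.3% lower. By adjusted p alone 9 members passed, against 69.6% of all genes, and Socs3 did not. The members' median log2 fold change was 0.13, and that of all genes 0.0. Of the 69 other pathway genes, 16 rose and 8 fell, with a median of 0.29.

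Receptor genes differed in both directions between ESC and day 9. Among 5 receptor chain genes beyond the members, 3 rose and 1 fell. Cntfr rose from 2.29 to 14.5 CPM and Il6ra fell from 21.8 to 3.61 CPM (log2 fold change -2.59, SE 0.09, edgeR adjusted p = 5.4e-12). Of 7 ligand genes, 3 rose and none fell. The 3 stayed low in ESC, with Il6 at 0.97 CPM, Il11 at 0.964 and Osm at 1.31. In ESC against day 9, 11 of the 12 fibroblast markers and all 8 blood markers also rose. What feeder cells, or cells with blood markers, contributed to these receptor and ligand values was not tested.

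Among the STAT3-responsive genes, 6 of 20 rose in ESC against day 9 and 4 fell. Klf5 rose from 6.67 to 60.9 CPM (log2 fold change 3.19, SE 0.07, edgeR adjusted p = 1.9e-14). Myc fell from 286.0 to 18.7 CPM (-3.94, SE 0.04, edgeR adjusted p = 3.9e-17). Klf4 fell from 410.9 to 182.2 CPM (-1.17, SE 0.03, edgeR adjusted p = 7.1e-13). Both are cassette genes, and reads of the cassette and of the endogenous genes cannot be told apart in the summed counts. Cebpd, an acute-phase transcription factor, fell from 34.8 to 4.19 CPM, and Lbp, a lipopolysaccharide-binding protein, from 6.2 to 0.664. Among inhibitors, Cish, which acts on cytokine receptors that signal through STAT5, fell from 32.9 to 5.0 CPM.

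The comparisons of day 9 and of ESC with MEF share the MEF libraries, so their values are given side by side only. At day 9, 1 member was higher and 7 were lower than in MEF, where 43.9% of all tested genes were called, 24.1% higher and 19.8% lower. In ESC, 2 members were higher and 6 lower, where 46.1% of all genes were called, 25.5% higher and 20.6% lower. By adjusted p alone all 10 members passed in both, against 74.9% and 76.6% of all genes. The members' median log2 fold change was -1.72 at day 9 and -1.49 in ESC, of 0.19 and 0.1 over all genes. Among the 69 other pathway genes, 11 were higher and 26 lower at day 9, and 14 were higher and 23 lower in ESC.

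The receptor, kinase and Stat3 genes were lower at both ends of that comparison, except Lifr. Against MEF, Osmr was lower by -4.45 at day 9 and -2.84 in ESC on the log2 scale, and Il6st by -2.15 and -2.57. Jak1 gave -2.25 and -1.51, Jak2 -2.95 and -3.27, and Stat3 -1.29 and -1.48, each of them called. Lifr gave -0.35, not called, and 1.02. Of the targets, Socs3 gave -2.35 and -2.38 and Pim3 1.71 and 2.0, all called. Pim1 gave -1.29 at day 9, a call that library-size scaling without TMM ended (-1.0), and 0.27 in ESC, not called. Lif gave -0.17 and -0.62, not called.

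Several genes of the wider pathway were higher later than in MEF. Stat4, a family member known from lymphocytes, had 0 reads in both MEF libraries and was at 2.16 CPM at day 6, 4.27 at day 9 and 13.1 in ESC. Set against a floor of 3 reads over the MEF group, or 0.0501 CPM, this was at least 85.2-fold higher at day 9 and at least 261.5-fold higher in ESC. Tfcp2l1 was at 0.303 CPM in MEF and 173.1 in ESC (log2 fold change 9.15, SE 0.1, edgeR adjusted p = 2.6e-17), and Gbx2 at 0.362 and 31.7. Ptpn6 was at 1.7 CPM in MEF, 18.5 at day 9 and 24.0 in ESC. Socs2 was at 13.4 CPM in MEF and 117.7 at day 9 (3.12, SE 0.07, edgeR adjusted p = 2.9e-14).

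Other listed genes were lower than in MEF at day 9, in ESC or in both. Nfil3 was at 101.2 CPM in MEF, 2.9 at day 9 and 10.2 in ESC. Ier3 was at 174.6 CPM in MEF and 13.4 at day 9 (log2 fold change -3.7, SE 0.07, edgeR adjusted p = 4.5e-15). Il6 went from 204 and 300 reads in the MEF libraries to 2 and 1 at day 9. Egr1 was at 1861 CPM in MEF, 325.6 at day 9 and 212.6 in ESC. Cebpd was at 48.1 CPM in MEF, at 34.8 at day 9, not called, and at 4.19 in ESC. Klf5 differed in the other direction, with 6.25 CPM in MEF, 6.67 at day 9, not called, and 60.9 in ESC.

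Levels per length allow the members to be set beside each other within a library. The deposited TPM values, which are scaled by effective transcript length, were used for transcripts of at least 1000 bases. Shorter entries distort the sum: Socs3-003, of 246 bases, held 3.75% of the Socs3 reads in MEF and 82.18% of its summed TPM. In the same group Il6st-006, of 201 bases, held 1.68% of the Il6st reads and 86.94% of the TPM. On the restricted TPM scale, Socs3 was the most abundant member in MEF (101.4 TPM) and at day 3 (178.6 TPM). In MEF it was followed by Il6st at 38.5, Jak1 at 29.6 and Stat3 at 29.5 TPM. In ESC the order began with Pim3 at 28.8, Pim1 at 22.1 and Socs3 at 20.6 TPM, and Lif was the least abundant at 1.41 TPM.

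On that TPM scale the ratios between receptor RNAs differed from MEF to ESC. The ratio of Il6st to Lifr was 19.6 and 20.9 in the MEF libraries, 9.48 and 9.97 at day 3, 11.6 and 12.3 at day 6, 5.62 and 6.42 at day 9, and 2.08 and 2.04 in ESC. Il6st exceeded Lifr in every library, and the margin was widest in MEF and narrowest in ESC. The ratio of Osmr to Lifr was 7.31 and 7.64 in MEF, and 0.529 and 0.543 at day 9, so that Osmr passed from above Lifr to below it. In ESC that ratio was 0.508 and 0.642, overlapping day 9. Fibroblast markers in ESC were at a median of 8.18% of their MEF level. The part of feeder RNA in the ESC ratios was not tested.

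Kinase and target ratios differed by stage too. The ratio of Jak1 to Jak2 in TPM was 2.07 and 2.1 in MEF and 7.58 and 6.62 in ESC, and between 2.8 and 3.95 in the 6 reprogramming libraries. The ratio of Socs3 to Stat3 was 3.46 and 3.41 in MEF, 12.6 and 10.8 at day 3, and 1.52 to 1.9 in the libraries of the other 3 groups. Day 3 was thus the stage with the most Socs3 RNA for its Stat3 RNA. Pim3 was below Pim1 in MEF, with ratios of 0.387 and 0.396, and above it in all other libraries, between 3.01 and 4.27 during reprogramming and at 1.32 and 1.29 in ESC. These ratios are a description, with no test, and the part of feeder RNA in the ESC values was not tested.

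**Figure D4:**
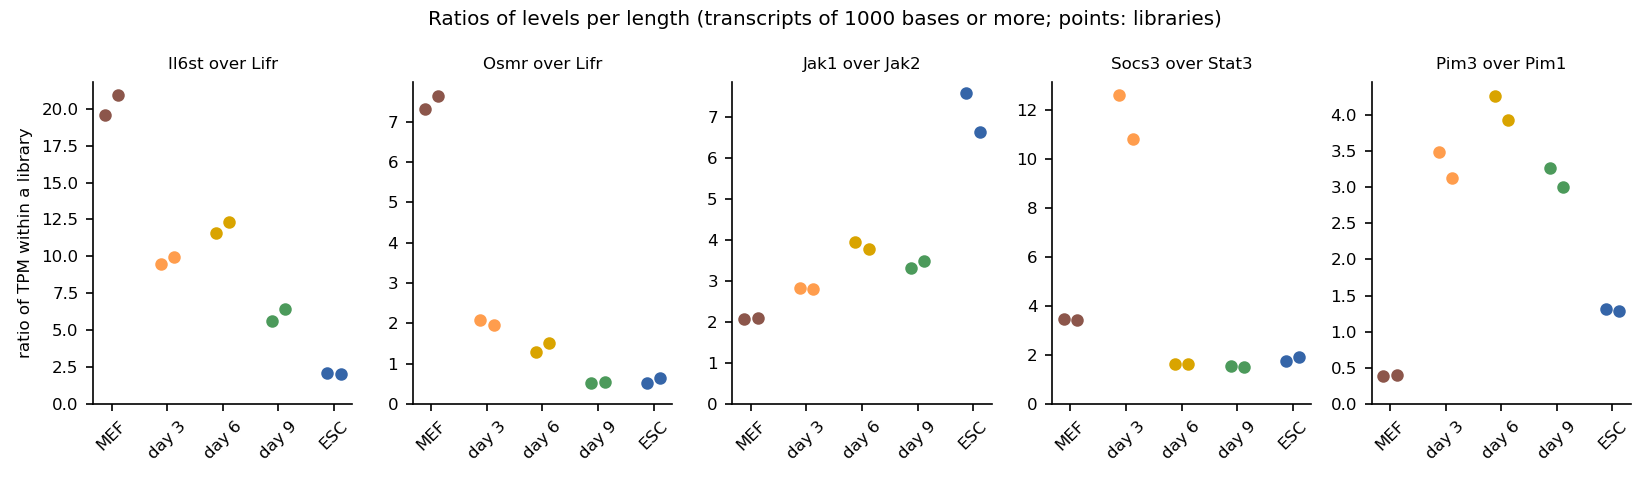
Ratios of TPM between pairs of members within a library, from transcripts of at least 1000 bases (vertical axes start at 0, with a scale for each panel; points are libraries). Il6st over Lifr runs from 19.6 and 20.9 in MEF down to 2.08 and 2.04 in ESC, and Socs3 over Stat3 peaks at day 3 with 12.6 and 10.8.

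The deposited estimates by transcript showed a shift within Il6st. Il6st-001 (8678 bases) and Il6st-201 (5207 bases) share a coding sequence of 2751 bases, but the former starts 10938 bases upstream of the latter and ends 3226 bases downstream of it. Il6st-001 held 45.39% and 45.82% of the gene's estimated reads in MEF, 60.1% to 67.49% in the 6 reprogramming libraries, and 31.75% and 30.12% in ESC. Il6st-201 took nearly all the rest, with a mean of 51.74% in MEF, 34.64% at day 3 and 66.06% in ESC. By estimated reads, the 2 transcripts thus changed rank between MEF and day 3 and again between day 9 and ESC, in both libraries each time. In TPM, which is scaled by length, Il6st-201 stayed above Il6st-001 in day 3 replicate 2 (8.953 against 8.316). The same held in day 6 replicate 1 (6.725 against 6.518), and Il6st-001 was above in the other reprogramming libraries. Single reads of 50 bases assign transcripts with an uncertainty these tables do not give, and no test was made. The part of feeder RNA in the ESC shares was not tested either.

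Jak2 showed the limit of such estimates. Its transcripts Jak2-202 and Jak2-201 also share their coding sequence, and Jak2-202 held 35.34% of the reads in ESC replicate 1 and 99.99% in replicate 2. The spread within a group was as wide as that between groups, so the transcript shares of Jak2 give no difference. For Lifr, Lifr-203, with 3276 coding bases, held 82.96% to 94.47% of reads. Lifr-202, which has 2157 coding bases and a shorter end, held a mean of 11.37% in MEF and 4.42% to 7.45% in the other groups. Pim1 and Pim3 each had 1 transcript in the deposited tables.

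**Figure D5:**
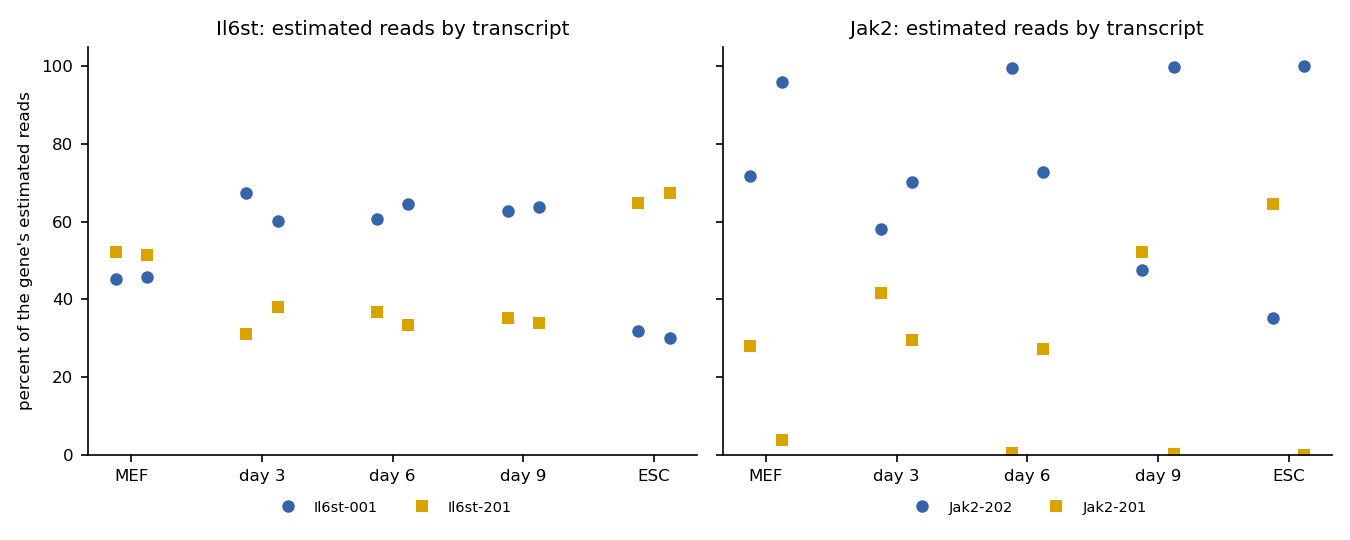
Share of a gene's estimated reads on its main 2 transcripts, in percent (vertical axis), by group; circles and squares are the transcripts and each library has a point of each kind. For Il6st the 2 libraries of a group lie close and Il6st-001 runs from 45.39% and 45.82% in MEF to 31.75% and 30.12% in ESC, while for Jak2 the libraries of one group lie as far apart as 35.34% and 99.99%.

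Genes with the most similar course were found by the root mean square difference of log2 CPM, each gene centred on its own mean, over the 10 libraries and 9569 protein-coding genes. The genes nearest to Stat3 were Hk1 (0.075), Dnajc1 (0.076) and Magt1 (0.084). Those nearest to Il6st were Fads1 (0.082), Tshz3 (0.12) and Ube2j1 (0.126). Bmf (0.118), Fntb (0.128) and Acad11 (0.135) were nearest to Lifr, and Bmf, for example, ran from 11.5 CPM in MEF to 27.4 in ESC. Socs3 had more distant neighbours, Atoh8 (0.151), Hes1 (0.235) and Sema6d (0.252). All 3 were highest at day 3, Hes1 at 226.3 CPM there, of 148.5 in MEF and 44.4 at day 6. Among the members themselves, the closest pair was Il6st and Stat3 at 0.42 and the most distant Osmr and Pim3 at 2.14. These distances share the same libraries and are a description.

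Promoter windows were searched for the STAT motif TTCNNNGAA, which reads the same on both strands in its fixed letters, and for GGGTGG or its complement CCACCC, taken here as the core of a KLF4-type site, with overlapping matches allowed. All 10 members had a window of 250 bases in the RefSeq table, 12 windows in all, as Lifr and Pim1 had another start each. Members are counted below by gene, and the background by window. TTCNNNGAA was in 1 member, Socs3, and in 7.02% of 32851 windows of the table. GGGTGG or CCACCC was in 4 members, Lif, Lifr, Il6st and Stat3, and in 28.1% of all windows. The Lifr window at the upstream start held no match. The RefSeq starts of Lif and Lifr are not those of their main transcripts here, which begin farther downstream. GC content of the members' windows was 48.0% to 82.4%, of a median of 52.4% over all. A match describes letters in a window, not a bound site.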

How the data were processed

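Per the labels' protocols, a stranded kit for poly(A) RNA was used and reads were single, of 50 nt. The authors deposited 1 table per library with, per the file headers, the length, effective length, TPM and estimated count of reads of each transcript; the deposited estimated counts are not normalized, and the deposited TPM is scaled by effective length. Salmon 0.8.2 and build mm10 are named in the submitters' processing notes, and the annotation release is not given in the sources used here. Estimated counts were summed per gene by the symbol and gene ID in the transcript names and rounded. Genes were kept with filterByExpr (minimum count 10, minimum total 15), which left 20165 genes, and scaled with TMM. The main test was the quasi-likelihood test of edgeR 4.0.16 in R 4.3.3, with all 10 libraries in 1 fit and 1 mean per group. Its p-values were adjusted by Benjamini-Hochberg over all genes tested, and genes were called at an adjusted p under 0.05 and a log2 fold change of 1 or more in size. It was also run on simulated counts in which few genes changed, which does not check it under changes as broad as those here. A common biological coefficient of variation of 3.75% was estimated. Replicates differed by more than sampling noise (chi-square per degree of freedom 2.78 to 5.05), and each library counted as 1 sample. That statistic cannot show whether the libraries of a group came from separate cultures.

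The members and the pathway and marker lists were chosen with earlier results of these data known. Beyond the members, the genes named were, per comparison, up to 8 called pathway genes with the largest fold change whose higher group had a mean of at least 5 CPM, and, for Lifr, Il6st, Stat3 and Socs3, the 3 nearest protein-coding genes in pattern at 20 CPM or more. One gene that the rule names is not reported here. Other genes named (Ptprc, Lyz2, Cd68, Lum, Tek, Cdh5, Esam, Emcn, Tie1, Egfl7, Osm, Il11, Ctf1, and Klf4 beside the cassette) were picked after their values were seen. Gene coordinates are those of GENCODE release M21 (GRCm38), matched by gene ID, and promoter windows are RefSeq's (GRCm38.p6). Alternatives were DESeq2 1.42.0 and its size factors, other filters and scalings, a length offset, limma 3.58.1 on log2(TPM + 1) and log2(TPM + 0.1), fits to the 2 groups compared, a replicate block, no fold change minimum, and each replicate left out in turn. The fit to TPM of transcripts of 1000 bases or more was added after seeing the data. Other software was Python 3.11.15, numpy 2.4.6, pandas 2.3.3 and matplotlib 3.10.9.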

Additional observations from a re-analysis of the deposited data

How the results depend on the processing

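The 60 fold changes of the members, of which 30 were called, were recomputed under 22 settings. This gave 960 values, since a fit without a replicate was used only for comparisons with that replicate's group. Of these, 896 kept their direction and call, 16 lost the call, 28 gained one (2 of them with the fold change minimum kept) and 20 reversed; no called value reversed. With no fold change minimum, 9 members were called for day 6 against day 3, 9 for day 9 against day 6 and 9 for ESC against day 9. In limma on log2(TPM + 1), 0 were called for day 9 against day 6, where 6 members had an unadjusted p under 0.05 and edgeR and DESeq2 each called 1. Without 1 replicate, in turn, the one call lost was that of Lifr in ESC against MEF, without ESC replicate 1. The numbers of members called under the other settings were within 1.5 times those reported. The replicate numbers in the titles did not pair the libraries: deviations of same-numbered libraries correlated at -0.0205 to 0.0222 over 10 pairs of groups. With the replicate block, the numbers of members called were 7, 3, 1, 3, 8 and 8, the same as without it.

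The reversed values were all near 0. Lif at day 9 against MEF was 0.12 with library-size scaling, 0.24 with a length offset, and 0.1 and 0.14 in limma with pseudocounts of 1 and 0.1. Lifr at day 3 against MEF was 0.12 with library-size scaling. Stat3 at day 6 against day 3 was -0.0 without the low-count filter, -0.02 with DESeq2 size factors, in DESeq2 and in the fit to 2 groups, and -0.01 in limma on longer transcripts and without day 3 replicate 1. Stat3 in ESC against day 9 was 0.12 and 0.13 in limma with pseudocounts of 1 and 0.1. Socs3 in ESC against day 9 was 0.02 with the stricter filter or library-size scaling, 0.04 in DESeq2 or with its size factors, 0.0 in limma with either pseudocount and 0.12 in limma on longer transcripts. The cause of these changes was not tested. Library-size scaling moved the all-gene median on the log2 scale from 0.08 to 0.285 for day 3 against MEF, from 0.193 to 0.482 for day 9 against MEF and from 0.099 to 0.438 for ESC against MEF. With 2 libraries a group, the precision rests on the spread pooled over all groups.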
